A study of Canis lupus familiaris with 5 samples.

Results

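Respiratory complex I genes were represented by 56 probe sets of 30 genes, out of 4653 probe sets and 2416 genes with a symbol on the arrays. The members were all probe sets that the platform annotation pairs with a single gene symbol starting with NDUF, the symbol stem of the nuclear-encoded subunits and of many assembly factors. They comprised 21 probe sets of 10 NDUFA genes, 12 of 7 NDUFB genes, 4 of 2 NDUFC genes, 10 of 6 NDUFS genes, 6 of 3 NDUFV genes and 3 of 2 NDUFAF genes. The other 17 NDUF symbols that were looked up were not analysed here.

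RNA came from canine heart muscle of dogs with congestive heart failure (3 arrays, failing 1a, 1b and 2a) and of control dogs (2 arrays, control 1a and 2a). For every array but control 1a the labels describe a pool of RNA from 3 dogs, and for control 1a they give no pool size. The cause of heart failure, the heart chamber and the age, sex and breed of the dogs are not given in the sources used here. The labels do not say whether failing 1a and 1b were different pools or repeated arrays of the same pool, so the spread behind the p-values may be technical.

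Complex I, NADH:ubiquinone oxidoreductase, is the entry point for NADH-derived electrons into the mitochondrial respiratory chain. Its matrix arm holds the N module, where NADH is oxidised, and the Q module, where ubiquinone is reduced, and its membrane arm, the P module, pumps protons. The conserved core subunits carry the flavin, the iron-sulfur clusters and the ubiquinone site, while supernumerary subunits surround and stabilise them. The beating heart depends on this chain for most of its ATP, and its muscle cells are packed with mitochondria.

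Each probe set has 1 linear intensity per array on a common scale. Intensities below 0 made up 34.8% to 40.1% of the probe sets on each array, with medians of these negative values from −660.1 to −293.8. How they arose is not given in the sources used here, so a negative value is not read as absence of the transcript. Differences are failing minus control on a log2 scale with intensities raised to a floor of 20, and no fold is given where any array lay below that floor. A probe set was tested in limma if its mean log2 intensity was at or above the median of all probe sets, an intensity of 140.1. Of the NDUF probe sets 40, from 26 genes, met this and 16 did not. NDUFA2, NDUFC1, NDUFS3 and NDUFAF2 had no tested probe set. The array platform was designed from human sequence, and how well each human probe set detects the dog transcript was not measured, so levels of different probe sets are not compared.

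Failing 2a stood apart from the other arrays. Over the tested probe sets its correlation with them was 0.511 to 0.534, whereas all other pairs lay between 0.666 and 0.798. Over the 40 tested NDUF probe sets the median absolute log2 difference was 0.27 between failing 1a and 1b and 0.33 between the control arrays, and 0.60 to 0.79 between failing 2a and any other array. Results without failing 2a are therefore given beside those with it.

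Failing and control myocardium were compared to see how complex I transcripts differ in heart failure. Complex I probe sets lay below both controls on every failing array in 16 of 56 cases and above both controls in 4. The 16 make up 28.6% of the members, where 13.4% of all probe sets lay below both controls on every failing array, and the 4 make up 7.14%, where 13.1% of all probe sets lay above. Those with dimmer signal included a probe set each of NDUFS4, NDUFS8, NDUFV2, NDUFA1 and NDUFA8, at 0.499 to 0.588 times the control level. The other NDUFA1 and NDUFS4 probe sets overlapped between the groups, at 0.844 and 0.623 times the control level. Those with brighter signal included a probe set each of the assembly factor NDUFAF3 and the subunits NDUFS1 and NDUFA9. No single probe set passed the adjusted threshold. With failing 2a left out, the 16 became 26 and the 4 became 9, where 22% and 23.9% of all probe sets did. The 4 became 7 with failing 1a left out (background 18.3%) and 8 above the remaining control with control 1a left out (background 23.7%).

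In limma with Benjamini-Hochberg adjustment over 2301 probe sets, 0 of the 40 tested NDUF probe sets had an adjusted p under 0.05, against 0% of all tested probe sets called lower and 0.0869% called higher. The lowest adjusted p of a member was 0.305. Lower members at an unadjusted p under 0.05 numbered 6 (15.0%) and higher ones 1 (2.50%), where the background was 3.35% lower and 6.13% higher. Of the 40, 27 had a log2 difference below 0 (67.5%, against 43.9% of all tested probe sets). The median log2 difference was −0.30 over the 40 members and 0.11 over all 2301 probe sets, so the members lay 0.41 below the bulk of probe sets on the log2 scale. Among the 6 is a probe set of NDUFS6 whose failing values all lay under the filter intensity, so that it was tested through its control values, and without it 5 of 39 were lower. With failing 2a left out, the 6 became 11. They became 2 with control 1a left out and 3 with control 2a left out, of 39 tested members each, where 1.04% and 1.13% of all tested probe sets were lower. The 1 became 0 when failing 1b (background 3.52%), control 1a (5.56%) or control 2a (5.3%) was left out. Since the dim filter uses the mean of 3 failing and 2 control arrays, it can favour probe sets that are bright in 1 group. With no filter, 11 of all 56 members were lower and 2 higher at an unadjusted p under 0.05, where 3.33% and 4.15% of all probe sets were, the median of the members was −0.26 and that of all probe sets 0.

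On each failing array the median of the members lay below 0. The median log2 difference of the 40 members from the control mean was −0.36 on failing 1a, −0.27 on failing 1b and −0.48 on failing 2a. It was 0.07 on control 1a and −0.07 on control 2a, which mirror each other because they are taken from their own mean. The control values thus do not measure the spread between arrays. The failing medians share this reference and are not independent of each other. Over all tested probe sets the medians went the other way, with 0.11, 0.10 and 0.34 on failing 1a, 1b and 2a. Below both controls lay 23, 21 and 21 of the 40 members on failing 1a, 1b and 2a, where 31.9%, 32.8% and 33.3% of all tested probe sets did. Above both controls lay 10, 11 and 15 of the 40, where 39.1%, 40.3% and 51.8% of all tested probe sets did. Without failing 2a, 26 of the 56 members lay below both controls and 9 above (background 22% and 23.9%), and 11 of the 40 were lower at an unadjusted p under 0.05 (background 7.04%). The counts thus became larger without that array, and so did their background, in a fit whose failing arrays may be repeats of the same pool.

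**Figure D1:**
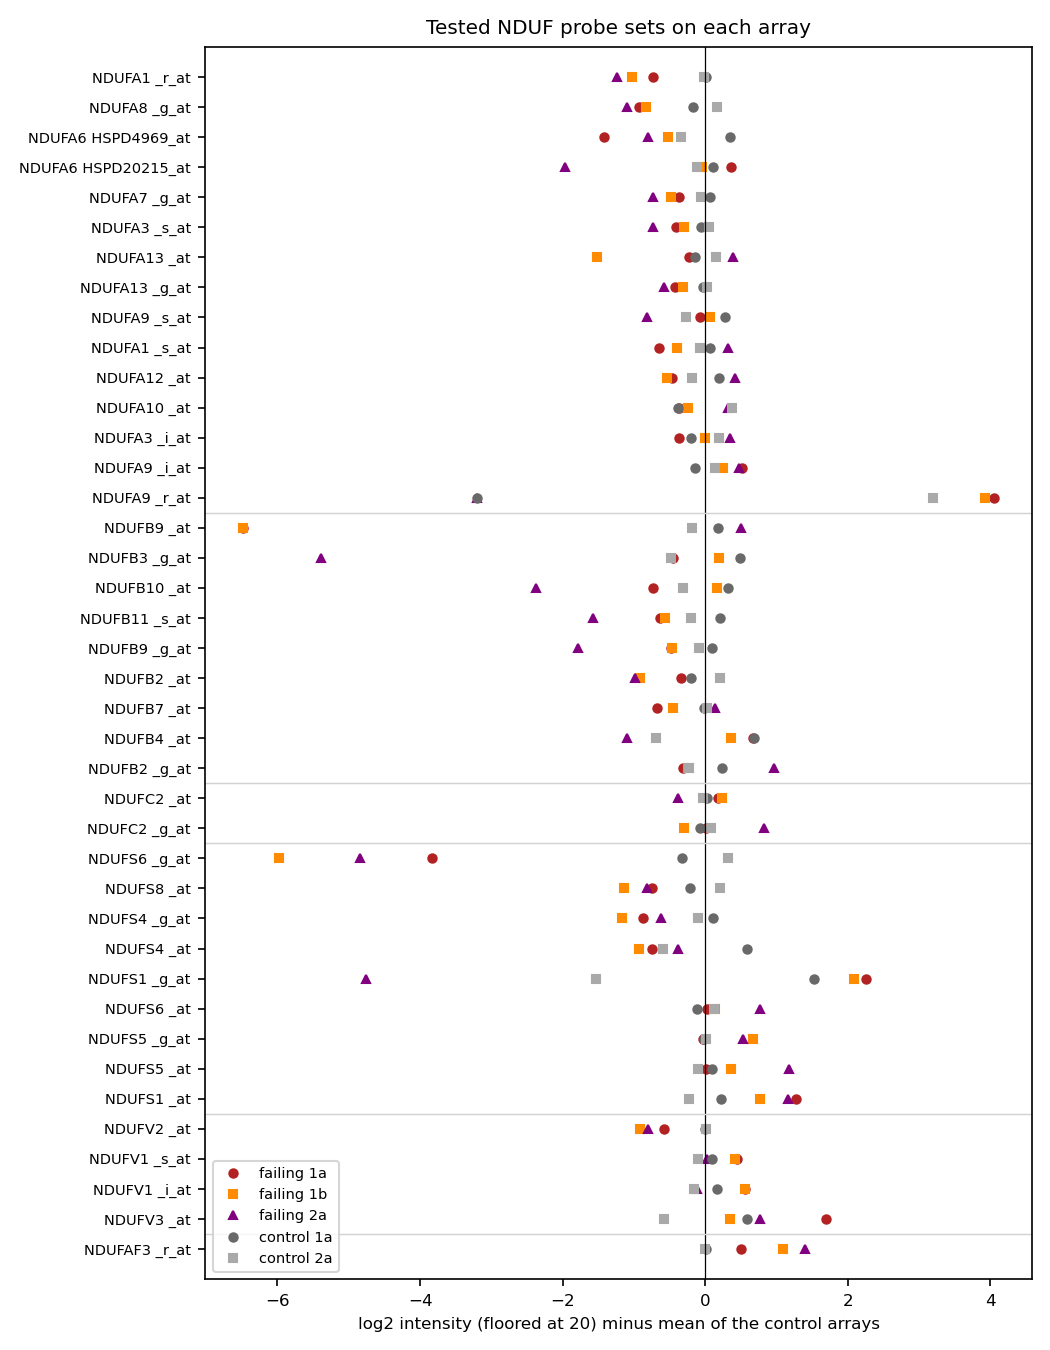
Log2 intensity of each of the 40 tested NDUF probe sets on each array, minus the mean of the 2 control arrays, in rows by symbol class (NDUFA, NDUFB, NDUFC, NDUFS, NDUFV and NDUFAF, from the top) and, within a class, by log2 difference. Red, orange and purple points are the failing arrays and grey points the control arrays; values were floored at 20. Most NDUFA and NDUFB rows have their coloured points left of 0, and the points beyond −3 belong to probe sets with an array at or near the floor.

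The tested probe sets were split into 4 classes of equal size by brightness. In the brightest class the 16 NDUF members had a median log2 difference of −0.50 and 11 lay below 0, while all 575 probe sets there had a median of 0.0039 with 49.7% below 0. In the next class the 12 members had −0.26 and all 575 probe sets 0.18. The 8 members of the second dimmest class had 0.02 and the 4 of the dimmest 0.19, near the 0.09 and 0.25 of all probe sets there. Below 0 lay 10 of the 12, 4 of the 8 and 2 of the 4 members, and the difference between classes was not tested.

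By symbol class, 13 of 15 tested NDUFA and 8 of 9 tested NDUFB probe sets had a log2 difference below 0, with medians of −0.44 and −0.91. The NDUFS class was split, with 5 of 9 below 0 and a median of −0.14. Of the 4 NDUFV probe sets 1 lay below 0 (median 0.31), and both NDUFC probe sets lay just above 0 (median 0.09). By module, the median was −0.14 over 11 probe sets of the N module, −0.53 over 7 of the Q module and −0.44 over 21 of the P module. The 6 tested probe sets of core subunits had a median of 0.08 and the 33 of supernumerary subunits −0.44. Some of these medians depend on values below the floor. Over tested probe sets with no array below it, the median was 0.31 for NDUFS (7 probe sets) and 0.29 for the N module (9). It was −0.45 for NDUFA (14), −0.75 for NDUFB (7), −0.54 for the Q module (6) and −0.33 for the P module (19). Core subunits then had 0.29 (5) and supernumerary subunits −0.33 (29). Core subunits were represented by NDUFV1, NDUFV2, NDUFS1 and NDUFS8 only, and the difference between these groups of probe sets was not tested.

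In the N module, NDUFS4 is the supernumerary subunit that holds the NADH-oxidising tip on the rest of the complex. Its probe set HSPD1315_g_at had intensities of 10939, 8897 and 12981 on failing 1a, 1b and 2a, against 21542 and 18613 on control 1a and 2a. All failing values lay far below both controls, with a log2 difference of −0.89 ± 0.22 (SE), 0.540-fold (limma, unadjusted p = 0.0076, adjusted p = 0.305). The other NDUFS4 probe set, HSPD1315_at, had 1252, 1108 and 1615 on failing 1a, 1b and 2a, against 3168 and 1394 on control 1a and 2a. Its log2 difference was −0.68 ± 0.45 (SE) and its groups overlapped, since failing 2a lay above control 2a. Both probe sets were designed on the same sequence and are not independent readings.

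NDUFV2, a core subunit with an iron-sulfur cluster beside the flavin site, had 1447, 1148 and 1248 on failing 1a, 1b and 2a, against 2162 and 2178 on control 1a and 2a. The control arrays were nearly equal, and every failing array was lower, with a log2 difference of −0.77 ± 0.29 (SE), 0.588-fold (limma, unadjusted p = 0.0401, adjusted p = 0.496). NDUFV1, the core subunit that binds the flavin and NADH, had positive differences at both tested probe sets that did not pass an unadjusted p of 0.05, with 0.33 ± 0.39 (SE) and 0.29 ± 0.29 (SE) and overlapping groups. The third NDUFV1 probe set was below 0 on all arrays. NDUFV3, a small supernumerary subunit, had 585, 229.7 and 306 on the failing and 269.7 and 120.5 on the control arrays at HSPD6598_at, again with overlap. The second NDUFV3 probe set was below 0 on all arrays.

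NDUFS1, the largest core subunit and carrier of several iron-sulfur clusters, was brighter on every failing array at HSPD7277_at, with 768, 539.6 and 710.1 on failing 1a, 1b and 2a, against 369 and 271 on control 1a and 2a. This is a log2 difference of 1.07 ± 0.56 (SE), 2.10-fold (limma, unadjusted p = 0.107, adjusted p = 0.617). At HSPD7277_g_at, designed on the same sequence, the values were 2570.4, 2298 and −791 on failing 1a, 1b and 2a, against 1561 and 187 on control 1a and 2a, so the groups overlapped and the arrays of each group disagreed.

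NDUFS6, a zinc-binding subunit of the N module, gave opposite readings at its probe sets. HSPD3043_g_at had 88.8, −74.2 and 44.1 on failing 1a, 1b and 2a, against 1013 and 1585 on control 1a and 2a. Both controls were clearly above 0 and the failing values lay around 0, a log2 difference of −4.89 ± 1.18 (SE) on floored values (limma, unadjusted p = 0.0074, adjusted p = 0.305) whose size depends on the floor. It passed the dim filter through its control values alone. HSPD3043_at, on the same sequence, had 2166, 2349 and 3639 on failing 1a, 1b and 2a, against 1962 and 2319.8 on control 1a and 2a, a log2 difference of 0.31 ± 0.32 (SE) with overlapping groups. NDUFA12, a supernumerary subunit beside it, had −0.19, also with overlap. NDUFA2, a thioredoxin-fold subunit, was too dim to be tested in limma with the filter. Its probe set HSPD385_g_at had −116, −246 and −2811 on failing 1a, 1b and 2a, against 923 and 767 on control 1a and 2a, below the floor on all failing arrays and above it on both controls, while HSPD385_at had −15.0, −14.0 and 868 on failing 1a, 1b and 2a, against 367 and 219.9 on control 1a and 2a and overlapped.

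**Figure D2:**
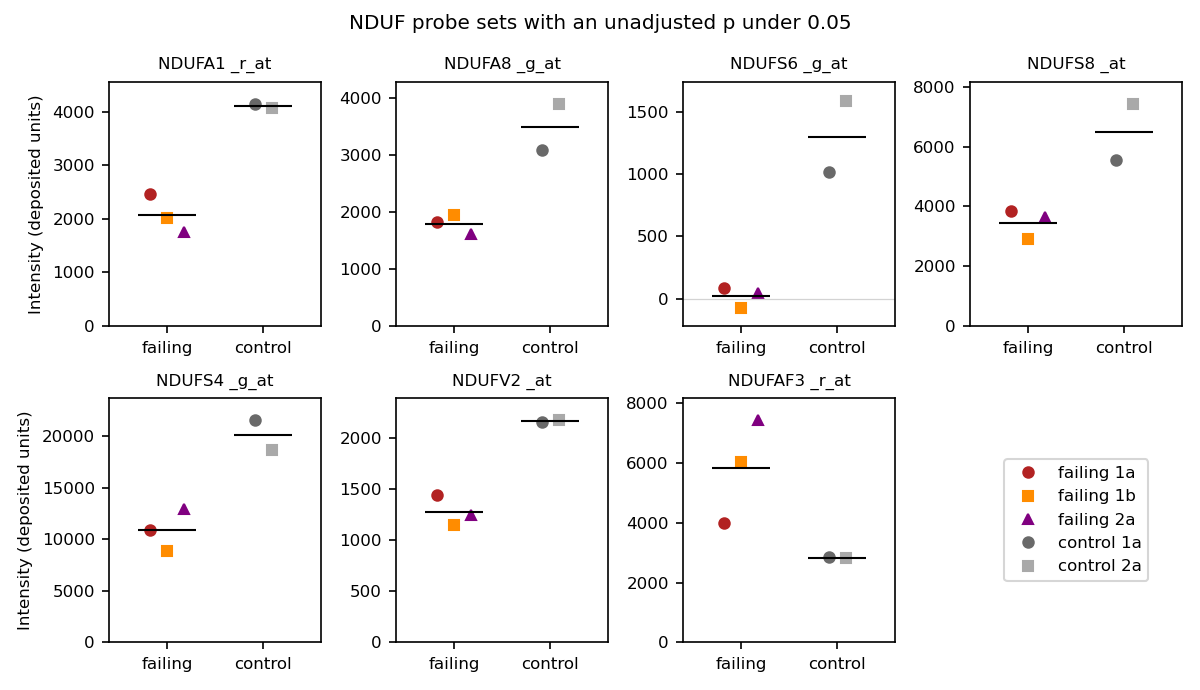
Deposited intensity (linear scale, each panel with its own axis) of the 7 NDUF probe sets with an unadjusted limma p under 0.05, for the 3 failing and the 2 control arrays; points are arrays and lines group means. In 6 panels all failing points lie below both controls, and in the NDUFAF3 panel all lie above them; the NDUFS6 probe set passed the dim filter through its controls alone, and none of the 7 passed the adjusted threshold.

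In the Q module, NDUFS8 is a core subunit with iron-sulfur clusters on the path to ubiquinone. Its single probe set had 3842, 2912 and 3633 on failing 1a, 1b and 2a, against 5557 and 7439.8 on control 1a and 2a. The highest failing value was well below the lower control, and the log2 difference was −0.90 ± 0.25 (SE), 0.535-fold (limma, unadjusted p = 0.0122, adjusted p = 0.346). NDUFA7 had 4335, 3986 and 3349 on failing 1a, 1b and 2a, against 5813 and 5341 on control 1a and 2a at HSPD24798_g_at, with every failing array lower and a log2 difference of −0.53 ± 0.21 (SE). Its other probe set was below the floor on 4 of the 5 arrays.

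NDUFA6, a subunit of the LYR family that binds the mitochondrial acyl carrier protein, was read by probe sets on different sequences. At HSPD4969_at it had 530.0, 991 and 815 on failing 1a, 1b and 2a, against 1801 and 1121 on control 1a and 2a, with every failing array lower and a log2 difference of −0.91 ± 0.47 (SE). At HSPD20215_at it had 470.0, 356 and 94.3 on failing 1a, 1b and 2a, against 397 and 340.3 on control 1a and 2a. There only failing 2a was clearly lower, and the difference was −0.55 ± 0.99 (SE), so both had the same sign and only the first was without overlap.

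NDUFA9, which lies where the matrix arm meets the membrane, had 10602, 8765 and 10271 on failing 1a, 1b and 2a, against 6713 and 8117 on control 1a and 2a at HSPD11246_i_at, above both controls on every failing array with a log2 difference of 0.42 ± 0.19 (SE), 1.33-fold. HSPD11246_s_at, on the same sequence, had 1619, 1776 and 967 on failing 1a, 1b and 2a, against 2046 and 1406 on control 1a and 2a, overlapping, with −0.27 ± 0.41 (SE). The third probe set, HSPD11246_r_at, swung between negative and positive values within both groups, with 3048, 2776 and −4528 on failing 1a, 1b and 2a, against −1837 and 1678 on control 1a and 2a. NDUFS3, a core subunit of this module, was above the floor on control 2a alone, at 141.

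In the P module, NDUFA1 is a small membrane subunit needed to assemble the complex. At HSPD2095_r_at it had 2471, 2010.2 and 1749.5 on failing 1a, 1b and 2a, against 4152 and 4081 on control 1a and 2a. The control arrays differed little and the failing arrays lay far below, with a log2 difference of −1.0 ± 0.26 (SE), 0.499-fold (limma, unadjusted p = 0.00924, adjusted p = 0.335). HSPD2095_s_at, on the same sequence, had 1592, 1901 and 3118 on failing 1a, 1b and 2a, against 2629 and 2386 on control 1a and 2a. Failing 1a and 1b were lower there and failing 2a was higher than both controls, with a difference of −0.25 ± 0.36 (SE).

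NDUFA8, a subunit on the intermembrane space side with paired cysteine motifs, had 1816, 1952 and 1618 on failing 1a, 1b and 2a, against 3086 and 3899.8 on control 1a and 2a at HSPD16194_g_at. Failing values were close to each other and below both controls, with a log2 difference of −0.95 ± 0.26 (SE), 0.516-fold (limma, unadjusted p = 0.0117, adjusted p = 0.344). Its other probe set, HSPD16194_at, was too dim for the filter and was also below both controls on every failing array, with −28.6, −324 and −2437 on failing 1a, 1b and 2a, against 73.5 and 152 on control 1a and 2a. NDUFA8 was the gene with both of its probe sets below both controls on all failing arrays.

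NDUFA13, also known as GRIM-19, is a subunit near the ubiquinone site. HSPD5255_g_at had 6233, 6707 and 5568 on failing 1a, 1b and 2a, against 8176 and 8488 on control 1a and 2a, all failing arrays lower, with a difference of −0.44 ± 0.18 (SE). HSPD5255_at had a like difference of −0.46 with a wider spread and overlapping groups. NDUFA3 had 5423, 5855 and 4324 on failing 1a, 1b and 2a, against 6920.3 and 7459 on control 1a and 2a at HSPD1284_s_at, all failing arrays lower (−0.48 ± 0.21 (SE)), while HSPD1284_i_at on the same sequence had −0.01 and overlap. The third NDUFA3 probe set, HSPD1284_r_at, was too dim for the filter. It was above the floor on failing 2a alone, at 1603, with a difference of 2.11 on floored values. NDUFA10, whose fold resembles a nucleoside kinase, had −0.10 with overlap, and its second probe set was below the floor on all arrays and is counted among the 4 above.

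The NDUFB subunits build the distal part of the membrane arm. NDUFB11 had 5223, 5485 and 2729 on failing 1a, 1b and 2a, against 9348 and 7021 on control 1a and 2a at its single probe set, a log2 difference of −0.92 ± 0.37 (SE), 0.528-fold, with every failing array lower and failing 2a lowest. NDUFB9, another LYR protein, had 8864, 8961 and 3587 on failing 1a, 1b and 2a, against 13148 and 11565 on control 1a and 2a at HSPD1429_g_at, with every failing array lower (−0.91 ± 0.45 (SE)). Failing 2a again had the lowest value. HSPD1429_at, on the same sequence, had −428, −266 and 2538 on failing 1a, 1b and 2a, against 2030.1 and 1578 on control 1a and 2a, so failing 1a and 1b were below 0 and failing 2a was above both controls.

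NDUFB2 had 3415, 2286 and 2175 on failing 1a, 1b and 2a, against 3740.4 and 4971 on control 1a and 2a at HSPD2800_at, all failing arrays lower (−0.75 ± 0.30 (SE)). At HSPD2800_g_at it had 2559, 2706 and 6206 on failing 1a, 1b and 2a, against 3746 and 2709.7 on control 1a and 2a, a difference of 0.14 ± 0.46 (SE) with failing 2a far above the rest. NDUFB10 had −0.98, NDUFB7 −0.33, NDUFB3 −1.88 on floored values and NDUFB4 −0.02, all with overlapping groups. The second probe sets of NDUFB10, NDUFB3 and NDUFB4 were below 0 on all arrays, and that of NDUFB10 is counted among the 16, with negative values that were more negative on the failing arrays.

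The tested probe sets of the remaining P module subunits had differences at or above 0. NDUFS5, a subunit on the intermembrane space side, had 0.51 ± 0.49 (SE) at HSPD4782_at and 0.39 ± 0.43 (SE) at HSPD4782_g_at. NDUFC2 had 0.01 ± 0.26 (SE) at HSPD107_at and 0.18 ± 0.65 (SE) at HSPD107_g_at. All of these overlapped between the groups, and their errors were too wide to tell a small difference from none. NDUFC1 was too dim at both probe sets and had −0.76 on floored values at HSPD1782_at.

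Assembly factors build the complex and are not part of it. NDUFAF3, which acts early on the Q module, had 4011, 6043 and 7439 on failing 1a, 1b and 2a, against 2848 and 2818 on control 1a and 2a at HSPD10082_r_at. Every failing array was above both controls, which were nearly equal, with a log2 difference of 0.996 ± 0.31 (SE), 1.99-fold (limma, unadjusted p = 0.0209, adjusted p = 0.436). HSPD10082_s_at, on the same sequence, was below 0 on 3 of the 5 arrays and above 0 only on failing 2a and control 1a. NDUFAF2, a relative of NDUFA12, was below 0 on all arrays, from −3861 to −2452. Of 16 assembly factors without an NDUF symbol, 6 were on the array and 4 were tested with 6 probe sets, of which none was past an unadjusted p of 0.05 in limma. Among them TMEM126A had a log2 difference of −0.71 ± 0.45 (SE), DMAC1 1.70 ± 1.11 and PHB1 0.41 ± 0.36.

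Counted by gene, 15 of the 30 genes had a probe set with every failing array below both controls, 4 had one above, 0 had both and 11 had neither. Counted in the same way, 18.9% of all genes had a probe set below both controls and 19% one above, with a mean of 1.54 probe sets per gene where the NDUF genes had 1.87. Of the 20 NDUF genes with 2 probe sets, 11 had one below and 3 one above, where 25.4% and 22.5% of all genes with 2 probe sets did. Of 13 genes with several tested probe sets, all differences were below 0 for 6 (NDUFA1, NDUFA3, NDUFA6, NDUFA13, NDUFB9 and NDUFS4), all above 0 for 3 (NDUFC2, NDUFS5 and NDUFV1) and mixed for 4 (NDUFA9, NDUFB2, NDUFS1 and NDUFS6). Of the 15 pairs of probe sets of a gene, 10 shared the sign and 5 did not. With 1 probe set for each gene, the brightest, 10 of 26 genes lay below both controls on every failing array and 2 above, where 11.8% and 19.6% of all genes did. By probe set suffix, 8 of 16 _g_at and 5 of 26 _at probe sets were among the 16 that lay below, where 13.6% of all _g_at and 12.7% of all _at probe sets did. On the array maker's naming, _i_at and _r_at mark probe sets with incomplete sets of probes or relaxed design rules. The NDUFAF3 and NDUFA9 probe sets above both controls are of these kinds, and so is the NDUFA1 probe set below them.

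**Figure D3:**
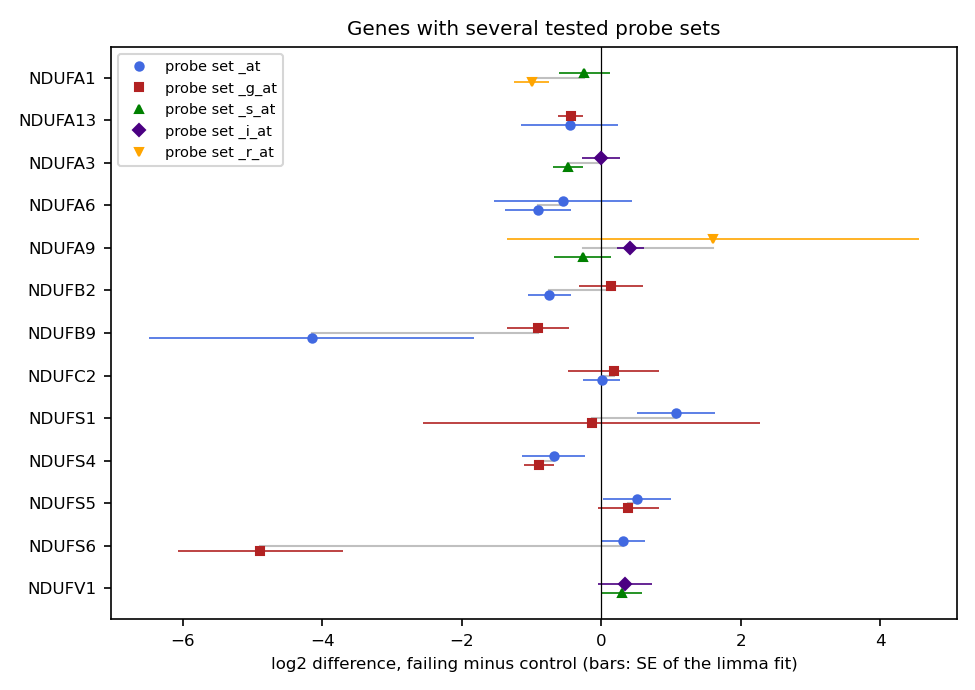
Log2 difference, failing minus control, of each tested probe set for the 13 NDUF genes with several, with standard errors of the limma fit as bars; marker shape and colour give the probe set suffix and grey lines join the probe sets of a gene. The probe sets of NDUFS4, NDUFS5, NDUFV1 and NDUFA13 lie close together, while those of NDUFS6 differ by 5.20 and those of NDUFB9 by 3.25 on the log2 scale.

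The other nuclear-encoded genes of the respiratory chain, complexes II to IV, ATP synthase and cytochrome c, were taken from a list of 47, of which 40 were on the array with 78 probe sets and 43 were tested. At an unadjusted p under 0.05 in limma 8 of the 43 were lower (18.6%) and 2 higher (4.65%), shares above those of all tested probe sets for lower values and below them for higher ones. Of all 78 probe sets, 22 (28.2%) lay below both controls on every failing array and 7 (8.97%) above. For the NDUF members the shares were 28.6% and 7.14%, and for all probe sets 13.4% and 13.1%. Below both controls lay 44.8% of the complex IV, 23.1% of the complex III, 18.8% of the ATP synthase and 0% of the complex II probe sets, dim ones included. Among tested ones the shares were 47.1% for complex IV, 33.3% for complex III, 33.3% for ATP synthase and 0% for complex II. Of all tested probe sets 11.5% lay below, and of the tested NDUF members 32.5%. The median log2 difference of the 43 tested probe sets was −0.32, against −0.30 for the tested NDUF members. Complex III had −0.59 (6 probe sets), complex IV −0.52 (17), ATP synthase −0.23 (18) and complex II 0.03 (2). With dim probe sets included, the median was 0 over the 78 and −0.26 over the 56 NDUF members. It was then 0 for complex III, 0 for complex IV and 0.04 for ATP synthase. With no filter 7 of the 78 were lower at an unadjusted p under 0.05 in limma, against 11 of the 56 NDUF members (background 3.33%). By moderated t the list was led by ATP5F1D (7.78 on floored values, both controls far below 0), ATP5MC1 (−0.75 ± 0.16, SE) and COX7A1 (−0.96 ± 0.21). The count of 8 fell with either control left out, and so did the share of all tested probe sets, in fits where 1 control shows no spread of its own. No difference between complexes was tested.

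**Figure D4:**
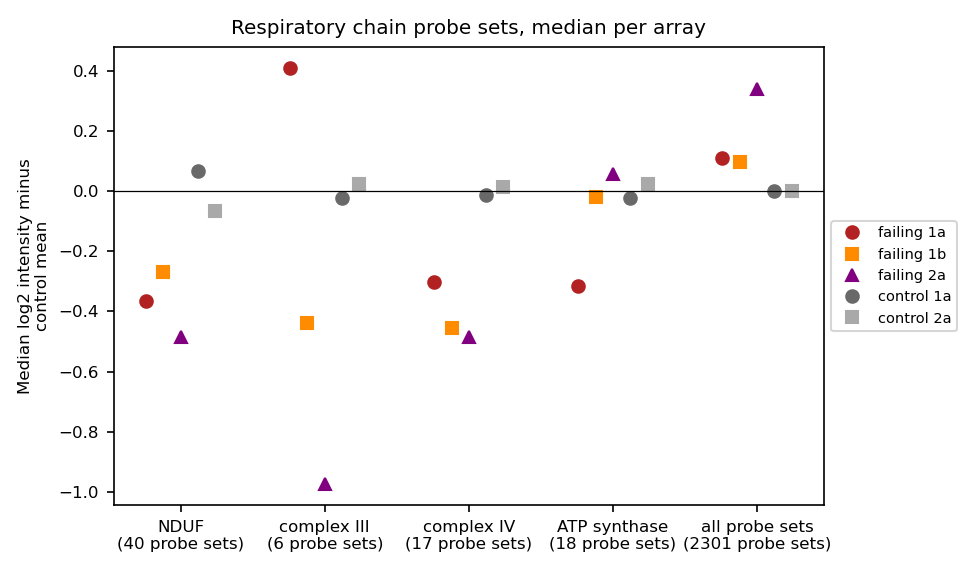
Median log2 intensity minus the control mean on each array, for the tested probe sets of complex I (NDUF), complex III, complex IV, ATP synthase and all 2301 tested probe sets; coloured points are failing and grey points control arrays. The failing arrays lie below both controls for NDUF and complex IV, on either side of them for complex III and ATP synthase, and above them for all probe sets.

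Genes for mitochondrial content and biogenesis, such as those of the outer membrane channels, the adenine nucleotide carrier and the factors that drive mitochondrial gene expression, gave 8 tested probe sets of 6 genes from a list of 16. Their median log2 difference was 0.11, 4 were below 0 and 4 above, and 1 was higher at an unadjusted p under 0.05. The sign of this median was not stable, with −0.26 without failing 1a, −0.04 without failing 2a, −0.32 without control 2a, and a range from −0.34 to 0.51 over other settings. The mitochondrial chaperone HSPD1 had 1.01 ± 0.37 (SE), the adenine nucleotide carrier SLC25A4 −0.41 ± 0.18 and the outer membrane channel VDAC3 0.51 ± 0.24, with adjusted p of 0.495, 0.567 and 0.582 in limma.

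Other measures moved with the groups beside the complex I values. GAPDH control probe sets at the 3′ and 5′ ends of the transcript had a 3′/5′ ratio of 1.42, 1.44 and 1.32 on failing 1a, 1b and 2a, against 2.15 and 2.32 on control 1a and 2a. The same ratio for actin overlapped between the groups, with 0.192, 0.0872 and 0.205 on failing 1a, 1b and 2a, against 0.0899 and 0.108 on control 1a and 2a. The cardiomyocyte markers, of which 6 of 9 were on the array and all 6 above the floor on all arrays, summed to 71158 to 81868 on the failing and 107152 to 115699 on the control arrays. Most of that sum came from MYH6, MYL3 and MB. Of their 7 tested probe sets 5 had a log2 difference below 0, with a median over the 7 of −0.54. The other 2 were positive, PLN with 0.63 and overlap and a RYR2 probe set with 0.66, above both controls on every failing array. The fibroblast markers, 6 of 7 on the array, summed to 5364 to 6837 on the failing and 2142 to 4518 on the control arrays. All 6 tested probe sets had a difference above 0, of which 2 lay above both controls, while POSTN had 0.02 with overlap. Endothelial markers, 5 of 6 on the array, summed to 5954 to 8326 on the failing and 9094 to 13016 on the control arrays. That lower sum was carried by an ENG probe set, since 4 of the 5 tested probe sets had a difference above 0 (median 0.86), and 3 of all 8 lay above both controls and 1 below. Smooth muscle markers, 3 of 4 with CNN1 below the floor throughout, summed to 1068 to 1888 on the failing and 3046 to 3125 on the control arrays. That sum was carried by TAGLN, the single tested probe set (−1.01), while the ACTA2 probe set was too dim and overlapped (−0.10 on floored values). Adipocyte markers, 2 of 3 on the array, summed to 2818 to 4574 on the failing and 4686 to 4791 on the control arrays, a sum carried by PLIN1, its single tested probe set (−0.34), while both FABP4 probe sets were too dim and had positive differences on floored values. The sums of erythroid and skeletal muscle markers overlapped. The single macrophage marker on the array, CD163, was below the floor on all arrays, and no lymphocyte marker was analysed. The part of these measures in the complex I result was not tested, and in bulk samples fewer cells of a type and less RNA per cell cannot be told apart.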

How the data were processed

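The authors deposited 1 table of linear intensity values, 1 per probe set and array, and no method for making them is given in the sources used here. In this table the mean of each array, after trimming 2% of probe sets at each end, is 800. Of 4653 probe sets, 52 array controls were left out, and of the other 4601, 3724 had 1 gene symbol, 72 several and 805 none in the platform annotation. No column belonged to another sample. The number of arrays limits the precision.

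Intensities were floored at 20 and put on the log2 scale. The 2301 probe sets with a mean at or above the median (7.13) were compared between 3 failing and 2 control arrays by the two-sided moderated test of limma 3.58.1 under R 4.3.3, with an intensity trend in eBayes and Benjamini-Hochberg adjustment over all of them with a threshold of 0.05. The test was also run on simulated data with independent, normally distributed values and no floor. That check does not cover repeated arrays of a pool or floored values. Groups that do not overlap were counted on deposited intensities. All NDUF genes are named, all values are given for tested members without overlap or with an unadjusted p under 0.05 and for discordant probe sets, and from other lists the 3 with the largest moderated t. The members and lists were chosen with earlier results of these data known. The alternatives changed the floor, scale, filter, trend, arrays, block and probe sets.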

Additional observations from a re-analysis of the deposited data

How the results depend on the processing

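Of the 18 alternatives, those that kept both control arrays had 0 NDUF probe sets past the adjusted threshold in limma. In these, 5 to 11 members were lower at an unadjusted p under 0.05 and 0 to 2 higher. Of all tested probe sets 1.91% to 7.04% were lower there and 3.13% to 9.21% higher. The 16 tested members without overlap between the groups, 13 below and 3 above, kept their direction in every alternative that tested them (276 values). They were chosen for not overlapping, so leaving out or averaging arrays could not reverse them, and this adds no support. The median log2 difference of the members stayed below 0, from −0.50 to −0.26, and lay 0.26 to 0.61 below that of all tested probe sets. It was −0.44 with a generalised log, −0.47 after quantile normalization, −0.50 after 75th percentile scaling and −0.46 without the _i_at, _r_at, _f_at and _s_at probe sets, an alternative chosen after seeing the data. Scaling moved the median of all tested probe sets from 0.11 to −0.05 (quantile) and −0.10 (75th percentile), and the members then lay 0.42 and 0.40 below it. Of the members lower at an unadjusted p under 0.05, 6 became 11 with no filter (background 3.33%). The 1 higher became 2 with no filter (background 4.15%), 2 with intensities above 200 on all arrays (7.7%) and 0 without the 4 suffix kinds (5.71%). The members above both controls numbered 7 of 56 with failing 1a and 1b averaged, where 18.1% of all probe sets lay above. With 1 probe set per gene 2 of 26 lay above (background 19.6%) and 10 below (11.8%). Without the suffix kinds 2 of 42 lay above (background 12.4%). The 8 lower probe sets of the other respiratory chain became 4 without the intensity trend, where 1.91% of all tested probe sets were lower.

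Leaving out each array in turn gave 2 to 11 lower and 0 to 1 higher members at an unadjusted p under 0.05 (all tested probe sets: 1.04% to 7.04% and 3.52% to 9.21%), 17 to 26 below and 6 to 9 above the controls that were left (all probe sets: 18.8% to 24.7% and 18.3% to 23.9%), medians of −0.45 to −0.29, and 3 to 11 lower probe sets of the other chain. Where 1 control is left, it is assumed to vary like the failing arrays. The median of the mitochondrial content genes was −0.29 with a floor of 100, with a filter on group means and without the suffix kinds, −0.34 with intensities above 200, −0.31 with failing 1a and 1b averaged and 0.51 with a floor of 5 or a generalised log, and −0.32 to 0.24 with an array left out. With the number in the titles as a replicate block, 10 members were lower at an unadjusted p under 0.05 (background 4.69%). The arrays share only this number, and their deviations correlated at 0.0424 between the groups over 2301 probe sets. The causes of these changes were not tested, and signals near or below 0 limit the dim members.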

Other observations

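A probe set that the annotation pairs with both NDUFS8 and ALDH3B1 was left out of the members. Its intensities were 4746, 5081 and 3856 on failing 1a, 1b and 2a, against 7021 and 9721 on control 1a and 2a, below both controls on every failing array with a log2 difference of −0.87. The NDUFS8 probe set among the members had −0.90.

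Of the 56 NDUF probe sets, 8 were below the floor on all arrays and 35 at or above it on all. Leaving out the 8, whose order among low values carries little, 15 of 48 (31.2%) lay below both controls on every failing array and 3 (6.25%) above, where 11.4% and 15.2% of the 3737 probe sets with an array at or above the floor did.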
